A study of Homo sapiens with 3 samples.

Results

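The AP-2 factors are a small family of transcription factors that bind GC-rich DNA as dimers, and they are described here with the proteins known to raise or lower their activity in NCI-H1975 cells, an established human lung adenocarcinoma line. The 8 genes were listed by name for their known role, with earlier results of these data known: the AP-2 factors TFAP2A, TFAP2C and TFAP2E, the CITED co-activators CITED1, CITED2 and CITED4, and the KCTD repressors KCTD1 and KCTD15. They are 8 of the 60880 gene rows in the library. The study compared wild-type cells with cells resistant to anlotinib, an inhibitor of several receptor tyrosine kinases, by RNA-seq and by ATAC-seq, a measure of open chromatin. It also sequenced RNA of resistant cells in which TFAP2A had been knocked down. The only values analysed here are raw read counts per gene of 1 RNA-seq library, wild-type replicate 2, which the labels give as wild-type cells. The resistant cells, the knockdown cells and the 2 wild-type ATAC-seq samples were not analysed here. No comparison between cell states was therefore made, and every value below comes from a single library without a replicate check.

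AP-2 factors recognise a palindromic GC-rich site and act on their targets through other proteins. CITED proteins do not bind DNA themselves. They bind AP-2 and the histone acetyltransferases CBP and p300, and so bring these enzymes to AP-2 sites. KCTD1 and KCTD15 carry a BTB domain and bind AP-2 factors, lowering their ability to activate transcription. In development AP-2 factors are best known from the neural crest, the epidermis, the placenta and the mammary gland.

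The sequences around the start sites of these genes show where the AP-2 consensus occurs in their own promoters. They were taken from a RefSeq promoter table (GRCh38.p14), which gives 250 bases before and 50 bases after each annotated start. The table held 14 windows for 6 of the 8 genes, and TFAP2C and KCTD15 were not matched. The motif GCCNNNGGC reads the same on both strands, and 4 of the 14 windows held it, against 23.2% of all 35116 windows. These 4 windows belonged to CITED2, CITED4 and KCTD1. The 2 windows of TFAP2A, the 1 of TFAP2E and the 3 of CITED1 did not hold these letters, and TFAP2C was not searched. Of the 14 windows 12 had at least 60% G and C, and 4 of those 12 held the motif, against 39.3% of all windows that rich in G and C. The share among the members therefore lay near the background on either basis, and a match is a description of letters and not a measured binding site.

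The stretches with a match upstream of a start are shown so that the letters found can be read in their context. Capitals mark matches to the motif with a spacer of 3 bases. In the CITED2 stretch they also mark a match with a spacer of 4 bases and the letters CACGTG. The CITED4 stretch also holds a match with a spacer of 4 bases, left in lower case, which begins 195 bases before the start. All are on the minus strand of GRCh38.p14 and are written 5′ to 3′ in the direction of transcription, from chr6:139374768-139374842 (CITED2), chr1:40862505-40862563 (CITED4), chr18:26549857-26549915 (KCTD1, start 2 as listed) and chr18:26549520-26549578 (KCTD1, start 3 as listed).
CITED2: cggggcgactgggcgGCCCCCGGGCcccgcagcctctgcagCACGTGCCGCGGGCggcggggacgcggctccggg
CITED4: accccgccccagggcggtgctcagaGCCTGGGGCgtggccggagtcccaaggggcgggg
KCTD1, start 2: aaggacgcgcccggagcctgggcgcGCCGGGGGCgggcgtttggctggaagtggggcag
KCTD1, start 3: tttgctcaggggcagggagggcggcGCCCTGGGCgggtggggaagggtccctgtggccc

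The CITED2 match began 148 bases before the start and shared 1 base with CACGTG, which began 153 bases before it. CACGTG holds ACGTG, the core of the hypoxia response element, on both strands. ACGTG was found on either strand in 21.4% of all windows and in 2 of the 14 windows of the members, the other being a window of CITED1. The match in CITED4 began 175 bases before its start. In KCTD1 the matches began 71 and 118 bases before starts 2 and 3, and the window of start 2 held a further match at position 39 after the start. The search for ACGTG was chosen after the data were seen.

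The TATA box core TATAAA, also searched after the data were seen and on both strands, was present in 4 of the 14 windows and in 11.5% of all windows. Among windows with at least 60% G and C it was present in 3 of the 12 of the members and in 2.80% of all. The 4 windows were 1 of the 2 listed for TFAP2A and all 3 listed for CITED1. The match in the window of CITED1 start 2 began farther away, 79 bases before the start, and is not shown. The TFAP2A and CITED1 stretches are set together because these 2 genes lie at opposite ends of the members by read count. Capitals mark TATAAA, which began 30 bases before the TFAP2A start and 29 bases before CITED1 starts 1 and 3, on the minus strand at chr6:10419659-10419714, chrX:72307156-72307211 and chrX:72305913-72305968.
TFAP2A, start 1: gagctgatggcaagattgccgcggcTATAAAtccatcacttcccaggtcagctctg
CITED1, start 1: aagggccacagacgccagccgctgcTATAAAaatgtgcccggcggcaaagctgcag
CITED1, start 3: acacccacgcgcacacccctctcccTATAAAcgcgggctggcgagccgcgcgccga

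**Figure D1:**
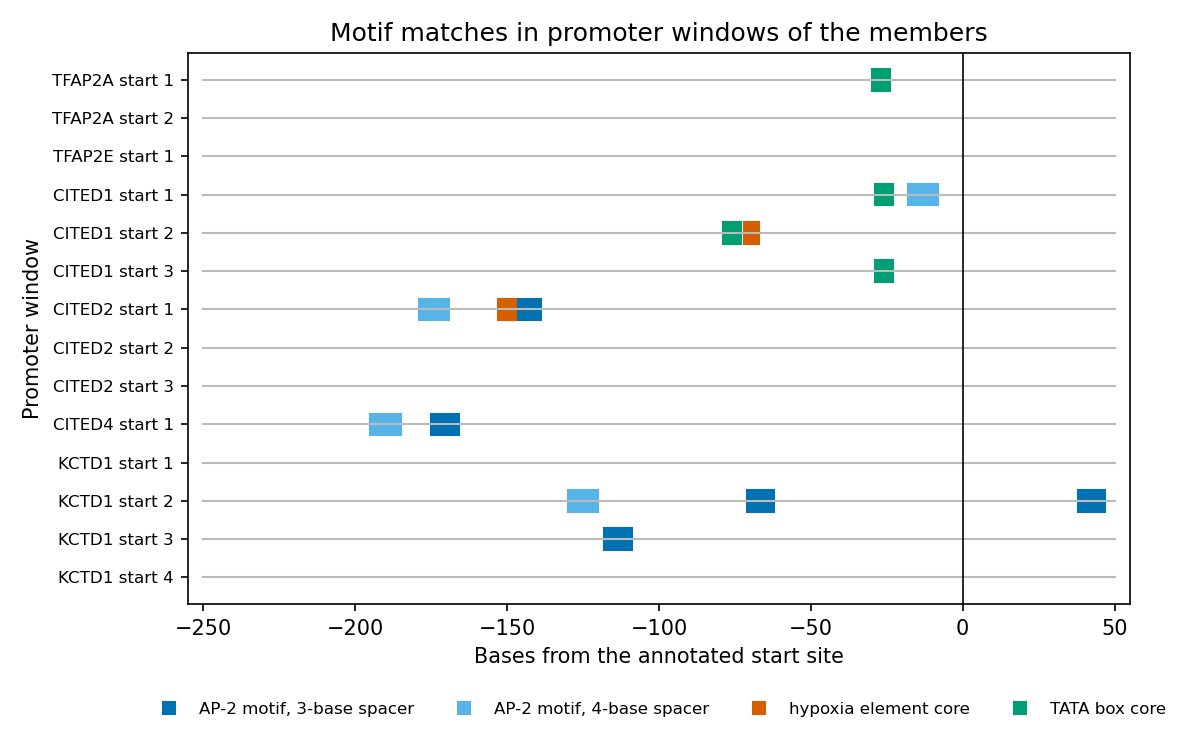
Positions of motif matches in the 14 promoter windows of the members, with bases from the annotated start on the horizontal axis and 1 line per window. Dark blue marks the AP-2 motif with a 3-base spacer, light blue with a 4-base spacer, orange ACGTG and green TATAAA; dark blue appears in 4 windows, of CITED2, CITED4 and KCTD1.

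Of the 8 members 7 were detected, meaning that they reached 10 counts, and CITED1 had none. This compares with 69.7% detected among all 19056 protein-coding genes in the file. The 8 genes together held 5660 counts, 0.0226% of the 25012733 counts in the library (exact 95% binomial interval 0.0220 to 0.0232). Levels are given as CPM, counts per 1000000 counts of the library, so that 1 count equalled 0.04 CPM. Intervals are exact 95% Poisson or binomial intervals, and they cover counting error only. They treat reads as independent, and since several reads may stem from 1 molecule, they may be too narrow even for that error. CPM is not corrected for transcript length, since no lengths were used here. A rank among the members therefore ranks their reads, and longer transcripts give more reads per molecule.

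TFAP2A, which encodes AP-2 alpha and is the gene the study later knocked down, had 1797 counts (identifier ENSG00000137203.11_3), or 71.8 CPM (68.6 to 75.2). This lay above 77.1% of detected protein-coding genes. TFAP2C encodes AP-2 gamma, known from the trophoblast and from breast cancer cells, and had 899 counts (ENSG00000087510.6_2), or 35.9 CPM (33.6 to 38.4), above 58.8% of those genes. TFAP2E, which encodes AP-2 epsilon, had 70 counts (ENSG00000116819.7_3), or 2.80 CPM (2.18 to 3.54), above 13.0%. The parental cells thus carried reads of 3 AP-2 genes at clearly separate read numbers, and their counting intervals did not overlap.

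TFAP2A held 65.0% of the 2766 counts of the 5-gene AP-2 family (63.2 to 66.7), TFAP2C held 32.5% (30.8 to 34.3) and TFAP2E held 2.53% (1.98 to 3.19). TFAP2A had 25.7 times the counts of TFAP2E (20.2 to 33.1), and TFAP2C had 12.8 times (10.1 to 16.6). The smaller ratio of TFAP2A to TFAP2C had a lower bound of 1.84. Their order per kilobase would reverse only if the TFAP2A transcripts were longer than those of TFAP2C by at least that factor. TFAP2B and TFAP2D, the remaining AP-2 genes, were at 0, which allows a level of up to 0.12 CPM each. TFAP2A therefore had at least 599-fold more counts than either, against a floor of 3 counts in this library.

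**Figure D2:**
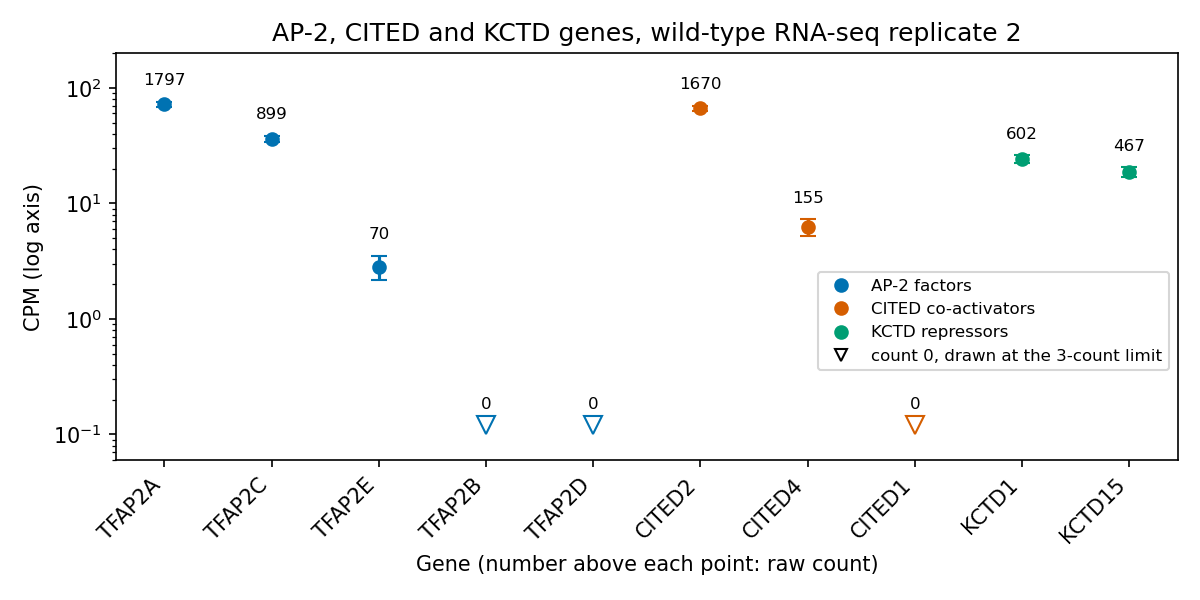
CPM on a log axis for the 5 AP-2 genes, the 3 CITED genes and the 2 KCTD repressors in wild-type RNA-seq replicate 2, with exact 95% Poisson intervals as bars and the raw count above each point. TFAP2A (1797 counts) and CITED2 (1670 counts) stand at the top, and CITED1, TFAP2B and TFAP2D, at 0, are drawn as open triangles at the limit of 3 counts (0.12 CPM).

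Reads of antisense transcripts at the AP-2 genes were few. TFAP2A-AS2 had 80 counts, or 3.20 CPM (2.54 to 3.98), and TFAP2A-AS1 had 42 counts, or 1.68 CPM (1.21 to 2.27). TFAP2A had 22.5 times the counts of TFAP2A-AS2 (18.0 to 28.5) and 42.8 times those of TFAP2A-AS1 (31.5 to 59.6). TFAP2E-AS1, which overlaps TFAP2E in the RefSeq table, had 2 counts. The library kit keeps strand, per the labels' protocols, but the sources used here do not give the strand setting of the counting. Reads of TFAP2A and TFAP2E and of their antisense partners may therefore have been mixed or dropped where the genes overlap. In the promoter table TFAP2A-AS1 starts 73 bases from the second listed TFAP2A start, in the opposite direction, and 7341 bases from the first. The counts are per gene and do not separate the 2 TFAP2A starts, which lie 7268 bases apart.

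CITED2 was the main CITED gene by read number. It encodes a co-activator that hypoxia induces and that competes with HIF-1 alpha for CBP and p300, and it had 1670 counts (ENSG00000164442.9_3), or 66.8 CPM (63.6 to 70.0), above 75.3% of detected protein-coding genes. CITED4, a further co-activator of AP-2, had 155 counts (ENSG00000179862.6_2), or 6.20 CPM (5.26 to 7.25), above 21.1%. CITED1, first described in melanocytic cells, had 0 counts (ENSG00000125931.10_5), with the same floor of 0.12 CPM. CITED2 held 91.5% of the 1825 counts of the family (90.1 to 92.7) and CITED4 held 8.49% (7.25 to 9.87).

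CITED2 had 10.8 times the counts of CITED4 (9.13 to 12.8). CITED2 had 557 times the floor of 3 counts set for CITED1, and CITED4 had 51.7 times, again without counting error. TFAP2A and CITED2 were neighbours in the order of the members, at a ratio of 1.08 (1.01 to 1.15). Their CPM intervals overlapped, and with 1 library the spread between cultures is not known, so no order of these 2 genes can be read from the counts.

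KCTD1 and KCTD15 were of similar read number and in the middle of the detected genes. KCTD1 had 602 counts (ENSG00000134504.13_4), or 24.1 CPM (22.2 to 26.1), above 47.5% of detected protein-coding genes. KCTD15 had 467 counts (ENSG00000153885.14_3), or 18.7 CPM (17.0 to 20.4), above 41.2%. The ratio of KCTD1 to KCTD15 was 1.29 (1.14 to 1.46). In 1 random thinning of the library to 50% it was 1.12 (0.947 to 1.33), an interval that holds 1. Only 1 such draw was made, so it cannot show how often the order is lost at that depth. The full-depth interval lies above 1 but covers counting error only, so the order of the pair is not firm.

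**Figure D3:**
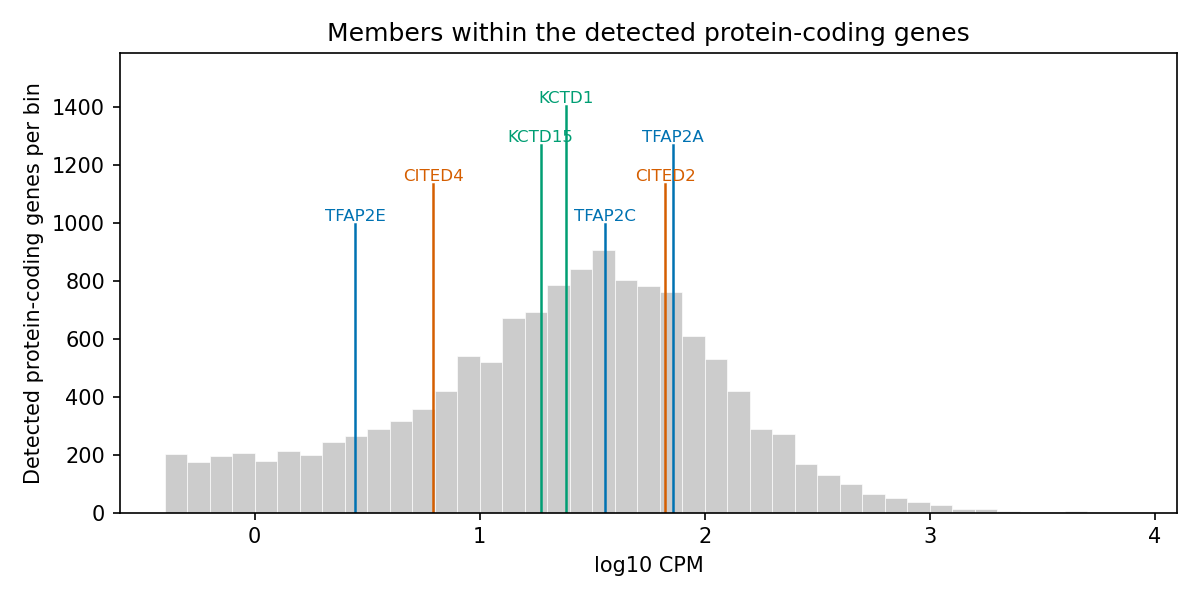
Histogram of log10 CPM for the 13279 detected protein-coding genes (grey bars, genes per bin), with a coloured line at each of the 7 detected members. TFAP2A and CITED2 lie on the right shoulder, KCTD15, KCTD1 and TFAP2C near the centre, and CITED4 and TFAP2E on the left side.

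Summed by role, the 3 detected AP-2 genes had 2766 counts, the 2 detected co-activators 1825 and the 2 repressors 1069. The co-activators had 1.71 times the counts of the repressors (1.58 to 1.84). The AP-2 genes had 1.52 times the counts of the co-activators (1.43 to 1.61) and 2.59 times those of the repressors (2.41 to 2.78). Each role thus had reads, and each sum was carried mostly by 1 gene, except that of the repressors, which the pair shared. The median of the 7 detected members was 24.1 CPM, beside 26.4 CPM for all detected protein-coding genes. TFAP2A, CITED2 and TFAP2C lay above that median and the other 5 members below it.

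KCTD1 and KCTD15 belong to a larger family of BTB proteins, many of which act as adaptors of CUL3 ubiquitin ligases. Of its 23 listed genes 20 were detected, or 87.0%, beside the 69.7% of all protein-coding genes. KCTD1 ranked 12 by count and KCTD15 ranked 15. The family was led by KCTD3 with 2852 counts, TNFAIP1 with 2236, KCTD5 with 1919, KCTD12 with 1666 and SHKBP1 with 1605. KCTD12 is an auxiliary subunit of GABA-B receptors, and TNFAIP1 is a CUL3 adaptor for RhoA. KCTD4 and KCTD8 were at 0 and KCTD16 had 3 counts. The 2 AP-2 repressors together held 5.19% of the 20617 counts of the family (4.89 to 5.50), so most KCTD reads came from genes not listed as AP-2 repressors.

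**Figure D4:**
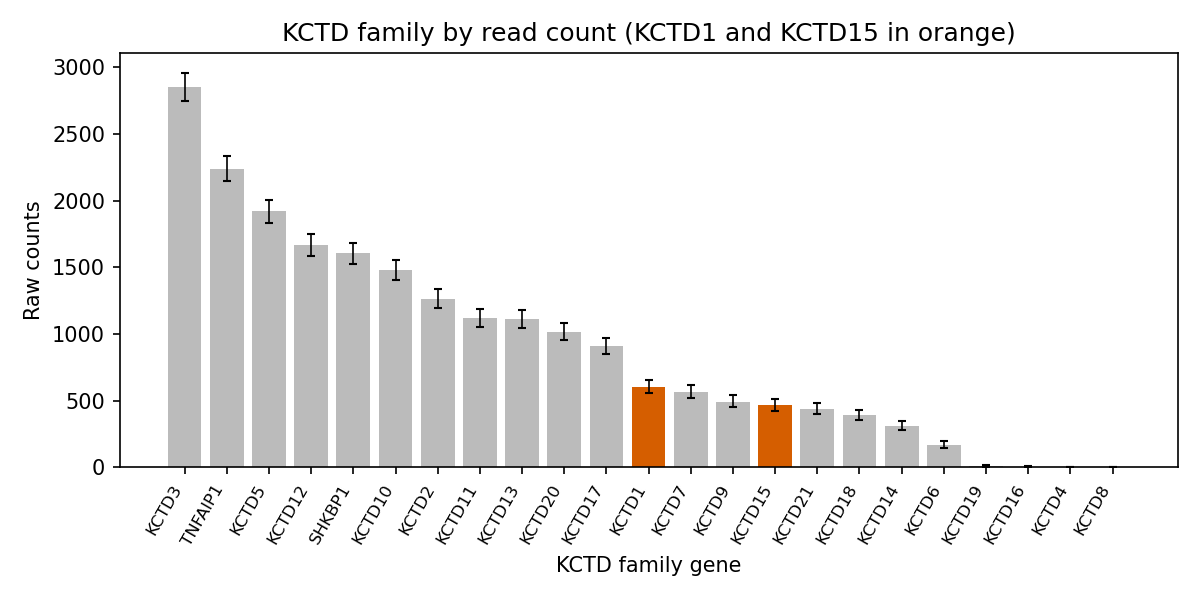
Raw counts of the 23 KCTD family genes in order of count, as bars from 0 with exact 95% Poisson intervals. KCTD1 (602 counts) and KCTD15 (467 counts), in orange, stand at ranks 12 and 15, below KCTD3 at 2852.

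Genes for proteins through which AP-2 factors act were read next. Transcripts of each of the 17 listed partners and modifiers reached the minimum, beside 69.7% of all protein-coding genes, and their median was 96.7 CPM. The acetyltransferase genes EP300, which encodes p300, and CREBBP, which encodes CBP, had 4198 and 3874 counts, or 168 CPM (163 to 173) and 155 CPM (150 to 160). Together they had 4.42 times the counts of CITED2 and CITED4 (4.20 to 4.66). The highest counts of the list were 11822 for NPM1, a nucleolar histone chaperone, 10058 for the beta-catenin gene CTNNB1, 6873 for PARP1, a DNA damage enzyme that also acts as a co-activator, and 5141 for the zinc finger factor YY1. NPM1 and the SUMO genes have processed pseudogenes, so their counts are uncertain. The lowest was RB1, which encodes the retinoblastoma protein, an AP-2 partner, with 195 counts. CREBBP and RB1 were added to the named genes after their counts were seen.

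Partners of CITED2 differed widely in read number. Of 12 listed genes 9 were detected, or 75.0%, beside the 69.7% of all protein-coding genes, and the median of these was 44.4 CPM. HIF1A had 9218 counts, or 369 CPM (361 to 376), EPAS1, which encodes HIF-2 alpha, had 7589 and their dimer partner ARNT had 1147. HIF1A had 5.52 times the counts of CITED2 (5.24 to 5.82). SMAD3 and SMAD2, which carry transforming growth factor beta signals, had 3384 and 1111 counts. ISL1 and WT1, factors of heart and kidney development among other organs, were at 0, and HNF4A, a factor of liver and gut, had 1 count. The LIM homeobox genes LHX2 and LHX3 had 64 and 16 counts, and PPARA, a nuclear receptor of fatty acid metabolism, had 707. SMAD4 had 792. These last 4 were named after their counts were seen.

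Genes that AP-2 factors are known to bind or regulate were detected about as often as other protein-coding genes. Of 28 listed genes 20 were detected, or 71.4%, beside the 69.7% of all protein-coding genes. The median of the detected genes was 284 CPM, beside 26.4 CPM. The keratin genes KRT7 and KRT8 led with 132533 and 65584 counts, followed by PLAU, which encodes urokinase, with 22814, the glutathione peroxidase GPX1 with 15426 and the metallothionein MT2A with 14281. Keratin 8, GPX1 and the metallothioneins have close relatives or pseudogenes, so their single values are uncertain. The other end held genes of tissues where AP-2 factors are also active. The placental hormone subunit gene CGA, the steroid enzyme gene CYP11A1 and FREM2 were at 0. The basal keratins KRT5 and KRT14 had 2 and 8 counts, and RET, the oestrogen receptor gene ESR1 and KIT had 2, 5 and 6. These last 5 were named after their counts were seen. The list mixes induced and repressed genes, and no value here shows that AP-2 sets any of their levels in these cells.

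Transcription factors that accompany AP-2 in the placenta, epidermis and neural crest varied from 0 to 1985 counts. Of 22 listed genes 13 were detected, or 59.1%, beside the 69.7% of all protein-coding genes, and the median of these was 15.8 CPM, beside 26.4 CPM. SOX9, a factor of cartilage, neural crest and lung progenitors, had 1985 counts, or 79.4 CPM (75.9 to 82.9), and GRHL2, which maintains epithelial junctions, had 1554, or 62.1 CPM (59.1 to 65.3). KLF4, GATA2 and KLF5 had 782, 742 and 673 counts. CDX2, PAX3 and DLX5, factors of trophoblast and gut, neural crest and craniofacial bone, were at 0. Of the other neural crest factors in the list, MSX1 had 394 counts, SNAI2 had 299 and MSX2 had 125. FOXD3 had 9 counts, SOX10 had 3 and ZIC1 had 0. GATA3, a factor of trophoblast and epidermis, had 16. Of the remaining listed genes, TP63 had 418 counts, TEAD4 had 393, DLX3 had 202 and GRHL3 had 21. ELF5 had 1 count, and HAND1 and EOMES were at 0. The genes from MSX1 onward were named after their counts were seen.

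**Figure D5:**
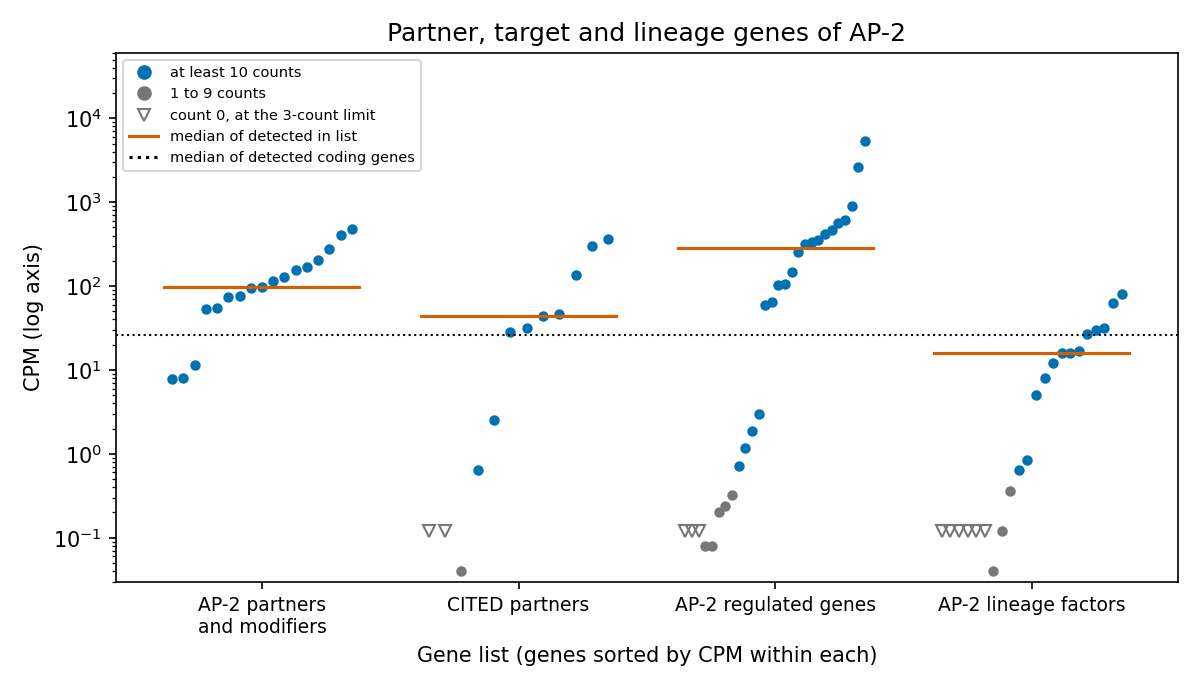
CPM on a log axis of each gene in 4 lists, sorted within a list, with blue points for at least 10 counts, grey points for 1 to 9 counts and open triangles for 0 counts at the limit of 3 counts. Orange lines are medians of detected genes (96.7, 44.4, 284 and 15.8 CPM from left to right), and the dotted line is the median of all detected protein-coding genes (26.4 CPM).

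The promoters of detected genes held the AP-2 motif more often than those of other genes, and they were also richer in G and C. The motif was in 30.7% of 15763 windows of detected protein-coding genes and in 18.6% of 5732 windows of those not detected. The median G and C content of the windows was 64.7% and 54.0%. The part of base composition in this difference was not tested. Among the listed AP-2 regulated genes 11 of 28 windows, from 19 genes, held the motif, with an exact binomial interval of 21.5 to 59.4% that holds both the 23.2% of all windows and the 39.3% of windows rich in G and C.

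Most of the listed markers of lung epithelium, the labelled cell type, were detected. Of 10 such markers 9 were detected, or 90%, beside the 69.7% of all protein-coding genes. KRT7, KRT8 and CDH1 are among these markers and also among the listed AP-2 regulated genes, so the lists are not separate. KRT18 had 33318 counts, KRT19 had 48349 and CDH1 had 10561. EPCAM had 4961, NKX2-1 had 2926 and NAPSA had 595, while the surfactant genes SFTPB and SFTPC had 62 and 1. EPCAM, NKX2-1, NAPSA and SFTPB were named after their counts were seen. Of 6 fibroblast markers COL1A1, with 7847 counts or 314 CPM, and COL1A2, with 4104 counts or 164 CPM, were detected. COL3A1 had 2 counts, and DCN, LUM and PDGFRA were at 0. Of 6 endothelial markers with a row CDH5, with 340 counts, and VWF, with 10, were detected, against 1 count for TEK and 0 counts for TIE1, CLDN5 and EMCN. Of 7 leukocyte markers CSF1R, CD14 and CD79A were detected with 731, 600 and 217 counts, and the defining marker PTPRC had 2 counts. CD3E and LYZ had 1 count each and CD3D had 0. The shares detected were 33.3% of the fibroblast, 33.3% of the endothelial and 42.9% of the leukocyte markers, beside the same 69.7%.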

How the data were processed

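RNA-seq counts of 1 library, wild-type replicate 2, were used. Per the labels' protocols, a directional library was made from 1 ug of Trizol-extracted RNA. The authors deposited raw whole-number read counts per gene under Ensembl identifiers. Build hg19 and, among the tools, featureCounts and STAR appear in the submitters' processing notes, with no role for each. The annotation release and the counting settings were not given in the sources used here.

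Identifiers were matched without version to current symbols: 56373 of 60880 rows, with 99.8% of counts, matched. Gene type came from a RefSeq table (GRCh38.p14). It set which genes counted as protein-coding, and so the shares, percentiles, medians and total given for such genes. That table was otherwise used for the names of overlapping genes only. Promoter sequences came from a RefSeq table of the same assembly. Counts of 25012733 in total were divided to CPM. The count minimum was 10, and a count of 0 was given a limit of 3 counts. Intervals were exact (Garwood, Clopper-Pearson, and conditional for ratios) at 95%. With 1 library no p-value was computed. Motifs were searched as letters on both strands, overlaps allowed.

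The members and the 13 gene lists were chosen with earlier results of these data known. Named were the members, the other AP-2 genes, antisense genes, and of each other list the 5 highest and up to 3 under the minimum, with exceptions stated. One of the listed AP-2 partners enters counts and medians but is not reported by name. Likeness to other genes needs more than 1 sample and was not computed. Code was tested on simulated data. Alternatives were other minimums, other totals, thinning and other motif forms. Software was SciPy 1.17.1, NumPy 2.4.6 and pandas 2.3.3 in Python 3.11.15, with figures in Matplotlib 3.10.9.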

Additional observations from a re-analysis of the deposited data

How the results depend on the processing

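The summed level of the 8 members, 226 CPM with all gene rows in the total, was 239 CPM without mitochondrially encoded genes, 244 CPM without the 10 genes with the highest counts and 246 CPM over protein-coding genes. These totals scale every member by the same factor, 1.06, 1.08 or 1.09, and leave the ratios between members as they are. The number of detected members was 7 at each minimum tried (1 count, 50 counts, 1 CPM) and after thinning to 50%. Thinning was done in 1 random draw. In that draw the share of TFAP2A among AP-2 counts lay within its full-depth interval. So did the ratios of TFAP2A to TFAP2C, of TFAP2A to CITED2 and of CITED2 to CITED4. The level of KCTD15 (20.7 CPM) and its ratio to KCTD1 did not. Detected endothelial markers went from 2 to 1 at 50 counts, at 1 CPM and after thinning, leukocyte markers from 3 to 6 at 1 count, and AP-2 antisense genes from 2 to 1 at 50 counts. No other list moved by over 1.5 times. The number of member windows with the AP-2 motif was 4 with either spacer length alone, 5 with both allowed together, and 4 in the bases before the start. Alternatives per transcript or coding length and protein identities were not run, because no lengths or proteins were used here. No paired analysis was possible because the counts come from a single library.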
